A study of Mus musculus with 6 samples.

Results

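The genes described here are 9 genes of transforming growth factor beta (TGF-beta) signalling, namely the ligand genes Tgfb1, Tgfb2 and Tgfb3, the receptor genes Tgfbr1, Tgfbr2 and Tgfbr3, the inhibitor gene Smad7, the activator gene Thbs1 and the target gene Tgfbi. They were taken as every probe set, a group of short probes that reads 1 transcript region, to which the array annotation gives one of these symbols and no other. This gave 23 of 45101 probe sets, or 9 of 18193 gene symbols. Glomeruli, the capillary tufts in which the kidney filters blood, had been isolated with magnetic beads and measured on Affymetrix arrays from 3 Pod-Cre fVHL mice and 3 wild-type littermates, 1 array per mouse. All mice were female and 6 weeks old. In the Pod-Cre fVHL mice, called Vhl-deleted below, a podocin-Cre transgene had excised the floxed von Hippel-Lindau gene Vhl in podocytes, the epithelial cells that wrap the glomerular capillaries, so that endothelial, mesangial and parietal cells in the same samples still carried Vhl. Only mutants whose urinary albumin at 4 weeks did not exceed the wild-type littermate average had been used. The labels do not say whether the controls carried floxed alleles or Cre.

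TGF-beta ligands are secreted in a latent form bound to matrix proteins and are released by integrins, proteases and thrombospondin 1. The active ligand binds the type II receptor, which phosphorylates the type I receptor, and this kinase then phosphorylates Smad proteins that carry the signal to the nucleus. In the glomerulus the pathway is best known for driving mesangial matrix production and for the loss of podocytes in scarring disease. Vhl marks hypoxia-inducible factors (HIF) for degradation, and the comparison concerns transcripts that differ when podocytes lack it.

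Values are MAS5 signals, the brightness of a probe set on a linear scale, and each array had been scaled to the same 2% trimmed mean of 500. A change is the log2 difference of signal + 28, Vhl-deleted minus wild-type, given with a standard error (SE). Each group has n = 3 arrays. A gene's value is that of its brightest probe set, and a gene was called when limma's adjusted p was under 0.05. The median signal of an array lay between 94.6 and 107.5. Vhl itself (1434708_at) was at 612 ± 6.46 in Vhl-deleted and 727 ± 74.1 in wild-type arrays (SD). Its dimmer probe set (1421071_at) was at 215 ± 18.6 in Vhl-deleted and 246 ± 23.8 in wild-type arrays (SD), with overlap. Neither was called (limma adjusted p = 0.984 for each). Vhl is a limited check because other cells keep the gene. Egln3, a known HIF target, was at 4523 ± 747 in Vhl-deleted and 154 ± 14.6 in wild-type arrays (SD), without overlap. Wild-type replicate 3 stood apart from the other arrays in kidney tubule markers, with a mean log2 level of 10.38 over 16 genes, against 11.62 to 12.46 in the Vhl-deleted and 11.85 and 12.11 in the other wild-type arrays. In bulk samples, fewer cells of a type and less RNA per cell cannot be told apart.

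None of the 9 TGF-beta genes differed between Vhl-deleted and wild-type glomeruli beyond the test's threshold. Over all 11168 genes tested with limma, 0.134% were called, and of the 9 genes 0 were called, with 1 (Thbs1) at an unadjusted p under 0.05, which 4.92% of all genes reached. The differences were small, between -0.17 for Tgfbr3 and 0.35 for Thbs1, with a median of 0.13 beside 0.0045 for all genes tested, and 6 of the 9 were positive. In Tgfb1 and Thbs1 all 3 Vhl-deleted arrays lay above all 3 wild-type arrays, a separation that 5.05% of all genes showed in this direction, and no gene of the 9 was separated in the lower direction, as 5.61% of all genes were. An exact two-sided permutation test over 3 against 3 arrays cannot give a p under 0.1. The mean log2 level of the 9 genes lay between 10.16 and 10.23 in Vhl-deleted and between 10.09 and 10.13 in wild-type arrays. Differences of this size depend on scaling. With arrays scaled to the same median, the median change of the 9 genes was 0.07, beside -0.06 for all genes tested.

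**Figure D1:**
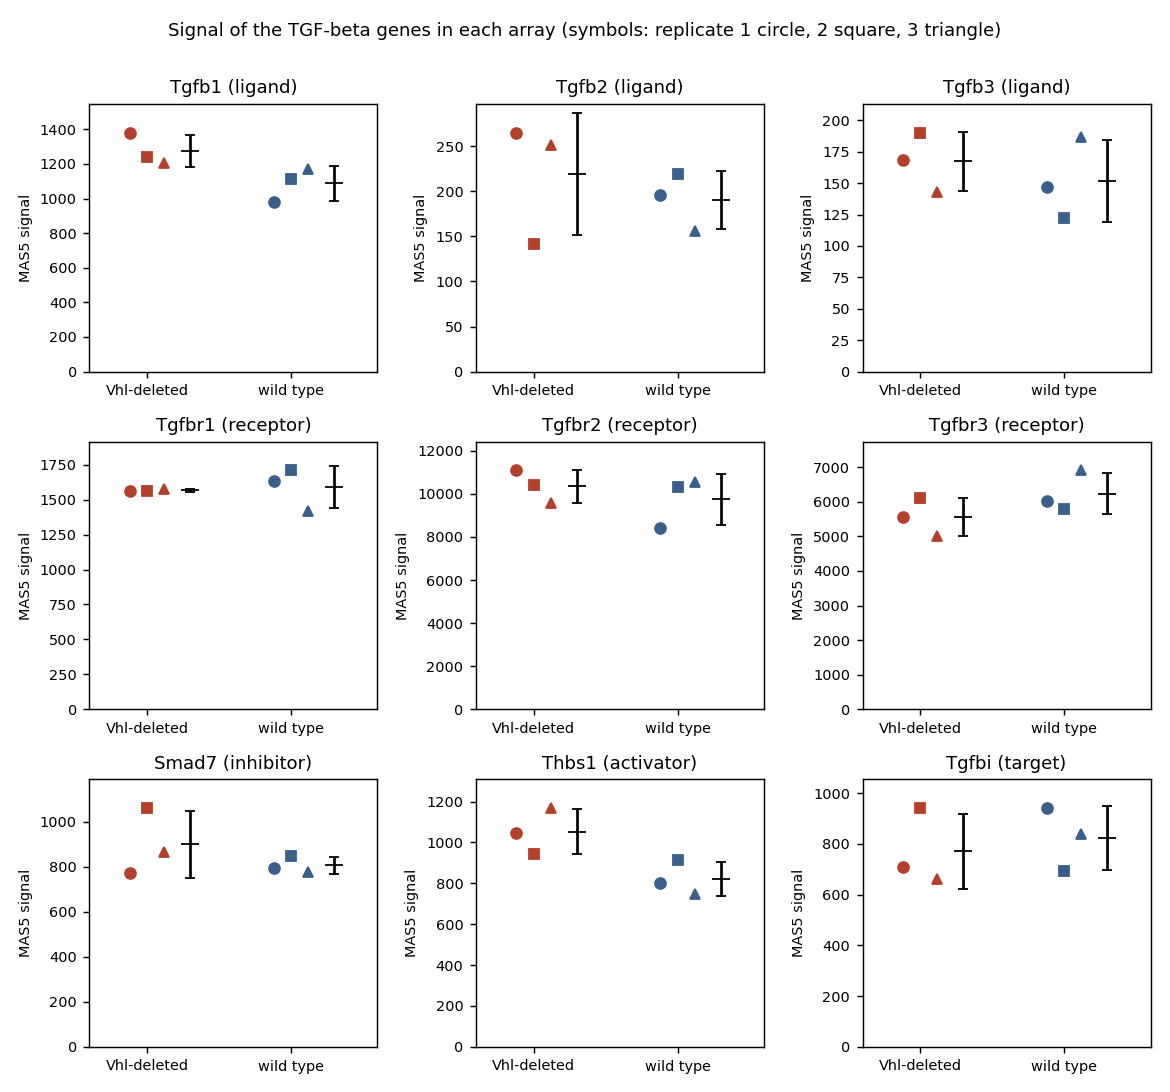
MAS5 signal (vertical axes, linear, from 0) of the 9 TGF-beta genes in the 3 Vhl-deleted (red) and 3 wild-type (blue) arrays, by the brightest probe set, with the mean ± SD as a black bar beside each group. In Tgfb1 and Thbs1 the groups do not overlap, and in the other 7 genes they do.

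All 9 genes had at least 1 probe set above the filter on low signal, so each had a gene-level value. Of the 23 probe sets, 20 lay above the filter and 3 below it. In a separate fit of all 45037 non-control probe sets without a filter, 0.0355% were called by limma, and of the 23 probe sets 0 were called. An unadjusted p under 0.05 was reached by 2 of the 23 (Thbs1 1460302_at and Tgfbr3 1425620_at), beside 4.53% of all probe sets. The Vhl-deleted arrays lay above all wild-type arrays in 3 of the 23 probe sets, beside 4.81% of all, and below them in 2, beside 4.97% of all. Probe sets of 1 gene read the same RNA on the same arrays and are not independent of each other.

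**Figure D2:**
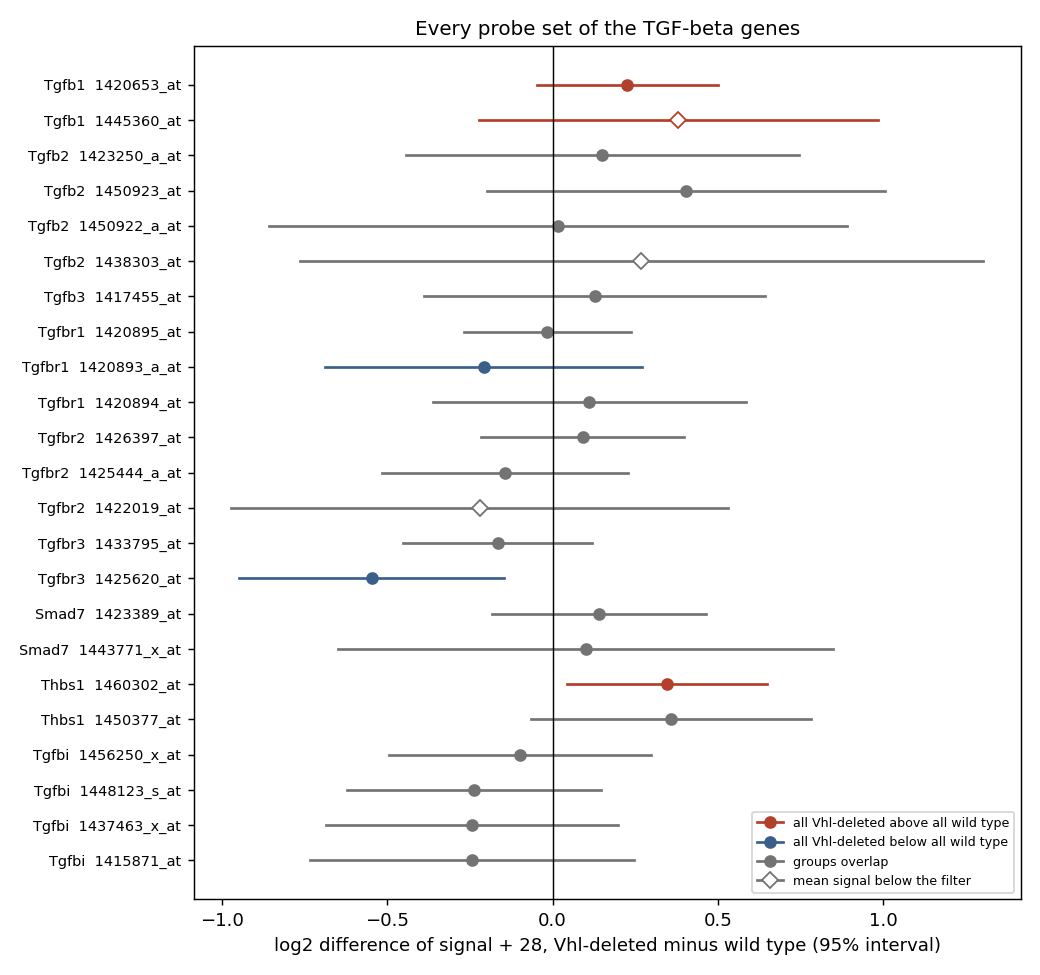
Log2 difference, Vhl-deleted minus wild-type, with its 95% interval (horizontal axis) for the 23 probe sets of the TGF-beta genes. Both Tgfb1 probe sets and 1 of the Thbs1 probe sets (red) had all Vhl-deleted arrays above all wild-type arrays, 1 probe set each of Tgfbr1 and Tgfbr3 (blue) had them below, and 3 probe sets (open diamonds) lay under the filter.

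Among the ligands, Tgfb1, the isoform most studied in glomerular scarring, had the most regular difference. Its signal (1420653_at) was 1379.8, 1242 and 1204 in the Vhl-deleted arrays, against 978, 1114 and 1172 in the wild-type arrays. Every Vhl-deleted array was above every wild-type array, but the nearest pair, Vhl-deleted replicate 3 and wild-type replicate 3, differed by little. The change was 0.23 (SE 0.12, limma adjusted p = 0.943), and its 95% interval of -0.05 to 0.50 corresponds to a fold between 0.968 and 1.41. The dim second probe set of Tgfb1 (1445360_at), below the filter, was at 77.4, 113.8 and 76.1 in Vhl-deleted and at 47.0, 67.0 and 71.0 in wild-type arrays, again without overlap, with a change of 0.38 (95% interval -0.22 to 0.98). With the tubule marker level of each array as a covariate Tgfb1 was at 0.27 (limma adjusted p = 0.650), and with 1 array left out it ran from 0.15 without wild-type replicate 1 to 0.28 without wild-type replicate 3. Median scaling gave 0.16. Leukocytes also make Tgfb1. Of 9 leukocyte markers tested, 8 had a positive change and 0 were called, and the sum of their signals was 9003 to 13086 in Vhl-deleted and 5112 to 7499 in wild-type arrays. Their part in the Tgfb1 difference was not tested.

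Tgfb2 and Tgfb3 encode the other two ligand isoforms, and both lay near the filter on low signal. The brightest Tgfb2 probe set (1423250_a_at) was at 265, 142 and 251 in Vhl-deleted and at 196, 219 and 156 in wild-type arrays. Vhl-deleted replicate 2 was the lowest of all 6 arrays and the other two Vhl-deleted arrays were the highest, so the groups overlapped. Tgfb2 had the widest range of the 9 genes over the arrays, 0.78 on the log2 scale, and a change of 0.15 (SE 0.25, limma adjusted p = 0.945). Vhl-deleted replicate 2 was the lowest Vhl-deleted array in all 4 Tgfb2 probe sets. In 1450923_at the signals were 226, 114 and 158 in Vhl-deleted and 126, 112 and 107 in wild-type arrays, with a change of 0.40 (95% interval -0.20 to 1.01). Leaving out Vhl-deleted replicate 2 gave 0.40 for the Tgfb2 gene, and leaving out Vhl-deleted replicate 1 gave 0.0079. Tgfb3 (1417455_at) was at 169, 190.1 and 143 in Vhl-deleted and at 147, 122 and 187 in wild-type arrays. These overlapped throughout, and the change was 0.13 (95% interval -0.35 to 0.60). Single arrays moved it widely, to 0.0046 when wild-type replicate 2 was left out and 0.044 when Vhl-deleted replicate 2 was, and to 0.22 when Vhl-deleted replicate 3 was left out and 0.26 when wild-type replicate 3 was.

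The upstream sequences of Tgfb1 and Tgfb2 are shown as the ligand genes with an entry in the RefSeq promoter table (build GRCm38.p6). That table matched 5 of the 9 genes. Matches to ACGTG are marked because HIF, the factor that Vhl controls, binds a core of which these letters are a form. Each sequence is the 250 bases before the transcription start, 5′ to 3′ on the gene's strand. It is in lower case with matches to ACGTG on either strand in capitals. Tgfb1 lies at chr7:25686752-25687001 on the plus strand and Tgfb2 at chr1:186705990-186706239 on the minus strand.
Tgfb1: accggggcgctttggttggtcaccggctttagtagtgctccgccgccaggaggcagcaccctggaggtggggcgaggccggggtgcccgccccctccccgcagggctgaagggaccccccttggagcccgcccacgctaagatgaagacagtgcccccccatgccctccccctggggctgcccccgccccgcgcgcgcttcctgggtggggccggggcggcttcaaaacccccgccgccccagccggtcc
Tgfb2: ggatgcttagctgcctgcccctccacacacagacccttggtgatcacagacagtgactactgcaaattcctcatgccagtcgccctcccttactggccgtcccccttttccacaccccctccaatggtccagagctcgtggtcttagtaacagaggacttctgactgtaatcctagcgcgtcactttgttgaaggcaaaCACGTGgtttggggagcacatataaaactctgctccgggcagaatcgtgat
The Tgfb1 window is 75.2% G and C and holds no ACGTG, and the Tgfb2 window is 53.6% G and C and holds 2 overlapping matches, 1 on each strand. Of the 32851 promoters in the table, 16.6% hold at least 1 match in the same window. The windows listed for Tgfbr1, Tgfbr2 and Tgfbi hold none. The letters CAGAC, a core that Smad proteins bind, occur 2 times in the Tgfb2 window on either strand and not in the Tgfb1 window, beside 42.2% of all promoters with at least 1 match. A match describes letters and is no measure of binding.

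None of the 3 receptor genes was called. Tgfbr2 encodes the type II receptor that binds the ligand, and its signal (1426397_at) was 11087, 10416 and 9567 in Vhl-deleted and 8394, 10298 and 10566 in wild-type arrays. Wild-type replicate 1 was the lowest and the other arrays were mixed. The change was 0.09 (95% interval -0.20 to 0.38, a fold between 0.871 and 1.30), and without wild-type replicate 1 it was -0.013. The second Tgfbr2 probe set (1425444_a_at) lay the other way, with 689, 595 and 524 in Vhl-deleted and 613, 599 and 797 in wild-type arrays (change -0.14, 95% interval -0.51 to 0.23), and the third (1422019_at) was under the filter in mean signal. The mean of the kept Tgfbr2 probe sets gave -0.026.

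Tgfbr1 encodes the type I receptor kinase that phosphorylates Smad2 and Smad3. Its brightest probe set (1420895_at) was at 1564, 1559.7 and 1578 in Vhl-deleted and at 1637, 1709.9 and 1422 in wild-type arrays. The Vhl-deleted arrays lay inside the wild-type range, and the change of -0.02 (95% interval -0.27 to 0.24, a fold between 0.831 and 1.18) turned to 0.0042 with quantile normalization, to 0.0070 without wild-type replicate 1 and to 0.038 without wild-type replicate 2. The other Tgfbr1 probe sets were much closer to the filter and lay in opposite directions: 1420893_a_at was at 104, 128 and 131 in Vhl-deleted and at 139, 155 and 137 in wild-type arrays, without overlap, and 1420894_at was at 151, 122 and 140.1 in Vhl-deleted and at 121, 133 and 120.2 in wild-type arrays. Their changes were -0.21 and 0.11, and the limma adjusted p was 0.984 for the first of them and 0.985 for the second.

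Tgfbr3 encodes betaglycan, a co-receptor that presents ligand, TGF-beta 2 in particular, to the type II receptor. Its brightest probe set (1433795_at) was at 5560, 6111 and 5009.6 in Vhl-deleted and at 6026, 5786 and 6909 in wild-type arrays. The Vhl-deleted arrays were mostly lower, with Vhl-deleted replicate 2 inside the wild-type range. The change was -0.17 (SE 0.12, limma adjusted p = 0.943). The dimmer Tgfbr3 probe set (1425620_at) was at 512, 491 and 336 in Vhl-deleted and at 649.6, 687 and 628 in wild-type arrays. All 3 Vhl-deleted arrays lay below all wild-type arrays there, with Vhl-deleted replicate 3 the lowest. This was the largest difference among the 23 probe sets by size, -0.55 (SE 0.17, 95% interval -0.95 to -0.15), and it was not called (limma unadjusted p = 0.0134, adjusted p = 0.973). Leaving out Vhl-deleted replicate 3 gave -0.37, leaving out wild-type replicate 3 gave -0.58, and the tubule covariate gave -0.51. At the gene level the mean of both Tgfbr3 probe sets gave -0.36, and the brightest alone was at -0.083 with the tubule covariate, -0.094 without Vhl-deleted replicate 3 and -0.091 without wild-type replicate 3. In the podocyte list 9 of 12 genes were negative and 0 were called, with a median of -0.18, and the sum of their signals was 113380 to 135770 in Vhl-deleted and 118220 to 152710 in wild-type arrays. Leaving out wild-type replicate 3 gave a podocyte median of -0.061, with 8 negative, and with the tubule covariate it was -0.078, with 7 negative and 1 called. Cdkn1c, a cell cycle inhibitor gene in that list, lay the other way without overlap (0.48, limma adjusted p = 0.789). The part of these markers in the Tgfbr3 difference was not tested.

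Smad7, an inhibitory Smad that is induced by the pathway and blocks its type I receptor, was at 772, 1062 and 867 in Vhl-deleted and at 794, 849.7 and 779 in wild-type arrays (1423389_at). Vhl-deleted replicate 2 was the highest array and Vhl-deleted replicate 1 the lowest. The change was 0.14 (95% interval -0.19 to 0.47), and it was 0.020 without Vhl-deleted replicate 2 and 0.24 without Vhl-deleted replicate 1. The other Smad7 probe set (1443771_x_at) varied more within groups, with 569, 593 and 362 in Vhl-deleted and 728, 475 and 280.03 in wild-type arrays. Its lowest value was that of wild-type replicate 3, and without that array its change of 0.0998 turned to -0.23.

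Thbs1 encodes thrombospondin 1, a matrix protein that releases TGF-beta from its latent form, and had the largest gene-level difference of the 9. Its signal (1460302_at) was 1044.5, 945 and 1168 in Vhl-deleted and 804, 913 and 749 in wild-type arrays. All Vhl-deleted arrays were above all wild-type arrays, with Vhl-deleted replicate 2 and wild-type replicate 2 close together. The change was 0.35 (SE 0.13, limma unadjusted p = 0.0308, adjusted p = 0.943), with a 95% interval of 0.04 to 0.65, or a fold between 1.03 and 1.57. The second Thbs1 probe set (1450377_at) was at 757, 582 and 653 in Vhl-deleted and at 612, 545 and 395 in wild-type arrays, with overlap and a change of 0.36 (limma adjusted p = 0.984). Leaving out wild-type replicate 3 gave 0.28 for Thbs1 (limma adjusted p = 0.999) and the tubule covariate gave 0.27 (limma adjusted p = 0.671). The change stayed positive under every alternative run, between 0.27 and 0.42. Its unadjusted limma p was not under 0.05 with median scaling or with the replicate block. Nor was it without Vhl-deleted replicate 1 or 3, or without wild-type replicate 1 or 3. Platelets store thrombospondin 1. Of 3 erythroid and platelet markers tested (Alas2, Pf4 and Itga2b), all had a negative change, and the sum of their signals was 491 to 689.6 in Vhl-deleted and 489 to 914 in wild-type arrays. Without Vhl-deleted replicate 1 or without wild-type replicate 1, 2 of the 3 were positive. The summed leukocyte markers given beside Tgfb1 were higher in all 3 Vhl-deleted arrays. The part of either list in the Thbs1 difference was not tested.

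Tgfbi encodes a secreted matrix protein named for its induction by TGF-beta, and its 4 probe sets all had a negative change. The brightest (1456250_x_at) was at 708, 939.9 and 664 in Vhl-deleted and at 941, 692 and 837 in wild-type arrays. The groups interleaved, and the change was -0.0978 (95% interval -0.51 to 0.31, limma adjusted p = 0.946) and 0.00073 without wild-type replicate 1. The other 3 Tgfbi probe sets had changes of -0.238, -0.243 and -0.243 without a call. In 1448123_s_at the signals were 525, 575 and 459 in Vhl-deleted and 633, 504 and 730.2 in wild-type arrays. Wild-type replicate 2 lay among the Vhl-deleted arrays in each of the 4 Tgfbi probe sets, and the 4 share their transcripts.

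**Figure D3:**
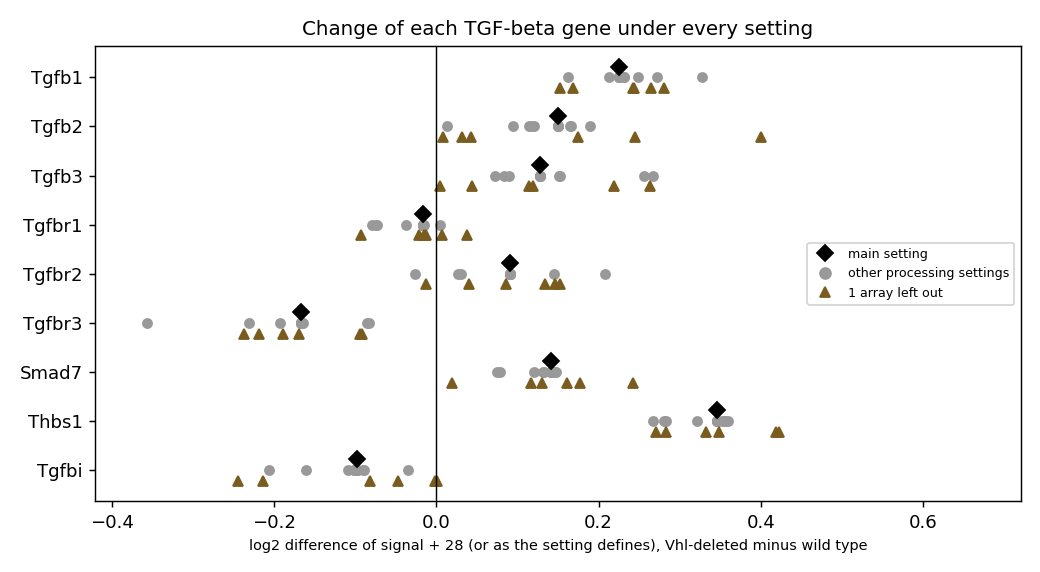
Log2 difference, Vhl-deleted minus wild-type (horizontal axis), of each TGF-beta gene under the main setting (black diamond), other processing settings (grey circles) and with 1 array left out (brown triangles). Tgfb1, Tgfb2, Tgfb3, Smad7 and Thbs1 stay above 0 and Tgfbr3 below 0 throughout, while Tgfbr1, Tgfbr2 and Tgfbi cross it.

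Of 98 other genes of the superfamily in 6 lists, 76 were tested, and 0 were called by limma in either direction. At an unadjusted p under 0.05 there were 8 of the 76, all higher in Vhl-deleted glomeruli, beside 4.92% of all genes (281 higher and 268 lower). The number was 5 with median scaling, where Mmp14 (0.27), Skil (0.30) and Bgn (0.36) were higher and Bambi (-0.43) and Ski (-0.42) lower. It was 4 to 8 with 1 array left out. Without wild-type replicate 1 the 8 genes held both directions, such as Skil at 0.41 and Bambi at -0.51. The Vhl-deleted arrays lay above all wild-type arrays in 10, beside 5.05% of all genes, and below them in 2, beside 5.61%. The median change of the 76 was 0.06, with 48 positive and 28 negative, and with arrays scaled to the same median it was 0.00037, with 38 of each sign. The median of all genes was -0.06 with that scaling, against 0.0045 without it. The lists were described by counts and medians only.

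**Figure D4:**
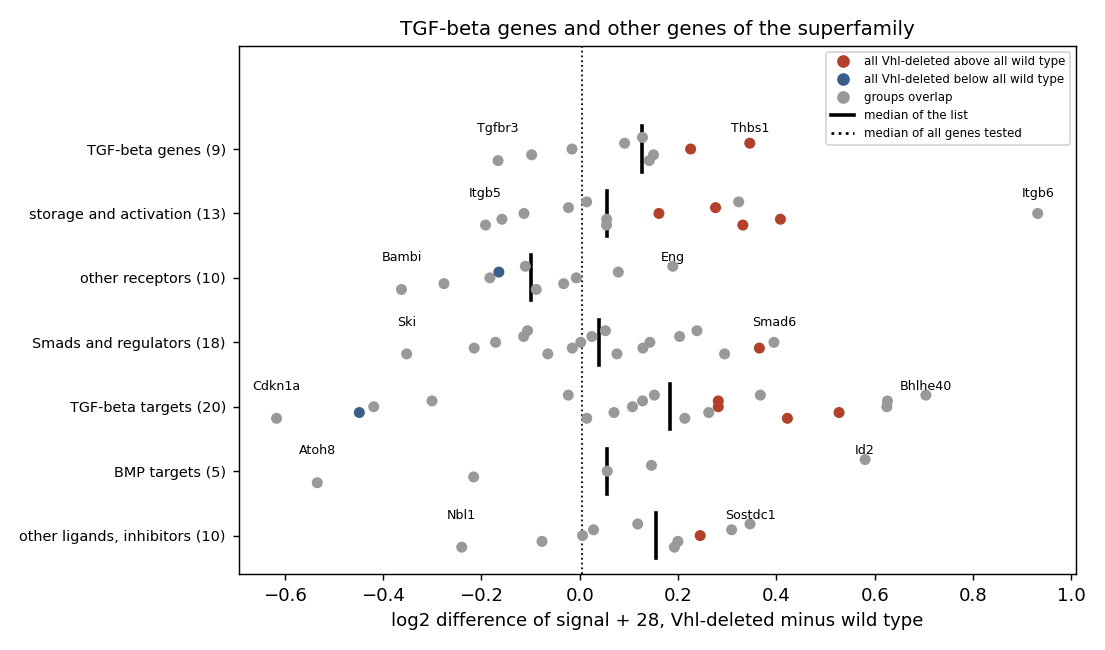
Log2 difference, Vhl-deleted minus wild-type (horizontal axis), of the 9 TGF-beta genes and of the tested genes of the other 6 lists, 1 point per gene, with the number tested in brackets and the lowest and highest gene of each list named. The list medians (bars) lie between -0.10 for other receptors and 0.18 for targets, against 0.0045 for all genes (dotted line).

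A list of genes linked to TGF-beta storage and activation, including restraining ones such as Emilin1, had 13 tested members, 9 of them positive. Its median of 0.05 turned to -0.0044 with median scaling. Ltbp3, a latent TGF-beta binding protein, was at 2111, 2005 and 2063 in Vhl-deleted and at 1722, 1732 and 1633 in wild-type arrays. The groups were well apart relative to their spread in this probe set, and the change was 0.28 (SE 0.09, limma adjusted p = 0.856). The mean of the kept Ltbp3 probe sets gave 0.16. Mmp14, a membrane metalloproteinase, was at 1263, 1093 and 1102 in Vhl-deleted and at 955, 900.1 and 870.4 in wild-type arrays (change 0.33, limma adjusted p = 0.852). Emilin1, an elastic fibre protein that restrains processing of the ligand precursor, was at 1719, 1657 and 2023 in Vhl-deleted and at 1149.6, 1478 and 1428 in wild-type arrays (change 0.41, limma adjusted p = 0.886). All 3 were separated between the groups, and none was called. Itgav, the alpha chain shared by the integrins that release TGF-beta and the brightest of the list, was at 0.01 (95% interval -0.28 to 0.31) and at -0.05 with median scaling. With 1 array left out the median of the list ran from 0.069 without wild-type replicate 3 to 0.12 without wild-type replicate 2. The tubule covariate gave 0.11.

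Other receptors of the superfamily lay the other way, with 8 of 10 tested members negative and a median of -0.10. Bambi, a pseudoreceptor that blunts signalling, was at 1300.2, 1430.1 and 1151 in Vhl-deleted and at 1353, 1724 and 1977 in wild-type arrays, with overlap (change -0.36, limma adjusted p = 0.943, and -0.24 without wild-type replicate 3). Acvr1, a type I receptor of BMP ligands, was separated, with 1441, 1417 and 1324 in Vhl-deleted and 1500.4, 1568 and 1627 in wild-type arrays (change -0.16). The BMP receptor genes Bmpr1a and Bmpr2 were at -0.28 and -0.03. Without wild-type replicate 3 Bmpr1a was at -0.11 and Bmpr2 at 0.033, and without wild-type replicate 1 Bmpr1a was at -0.44. Without Vhl-deleted replicate 3 Bmpr2 was at 0.025. The list depended on wild-type replicate 3, in which its mean log2 level was 10.90, against 10.47 to 10.61 in the Vhl-deleted and 10.42 and 10.53 in the other wild-type arrays. Without that array the median was -0.02 and 5 of 10 genes were negative.

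In Smad genes and their regulators 11 of 18 tested were positive, and the median of 0.04 turned to -0.022 with median scaling and to -0.019 without Vhl-deleted replicate 2. Skil, which encodes the Smad repressor SnoN and is itself a target of the pathway, was at 3946, 4217 and 3286 in Vhl-deleted and at 3119, 2598 and 3136 in wild-type arrays, without overlap (change 0.37, limma adjusted p = 0.943). Smad6, an inhibitory Smad of the BMP branch, was at 4244, 3571 and 3852 in Vhl-deleted and at 2685, 2606 and 3642 in wild-type arrays. Wild-type replicate 3 was the one that overlapped, and the change was 0.40 with it and 0.55 without it (limma adjusted p = 0.943 with it and 0.330 without it). Ski, a related repressor, was at -0.35 and the shared Smad4 at 0.08 (limma adjusted p = 0.943 and 0.950), and Smad4 was at -0.052 without Vhl-deleted replicate 2.

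Of 20 tested genes known as induced by TGF-beta, 15 were positive. Their median was 0.18, and with 1 array left out it ran from 0.093 without Vhl-deleted replicate 3, where 11 of 20 were positive, to 0.19 without wild-type replicate 2. The tubule covariate gave 0.092 and array weights 0.097, each with 12 of 20 positive, and median scaling gave 0.12. Bgn, the small proteoglycan biglycan, was at 8070.0, 8668 and 9381 in Vhl-deleted and at 6292, 6891 and 6266 in wild-type arrays. This was the clearest separation among the named targets, with a change of 0.42 (SE 0.10, limma unadjusted p = 0.00394, adjusted p = 0.620). Tagln, a smooth muscle actin-binding protein, was at 1032, 1079 and 1345 in Vhl-deleted and at 668, 1031 and 702 in wild-type arrays, just separated (change 0.53). Snai1, a transcriptional repressor, was separated the other way, with 100.3, 92.7 and 139 in Vhl-deleted and 147, 154 and 179 in wild-type arrays (change -0.45). Ccn2, connective tissue growth factor and the brightest target, was at 28544, 27123 and 28820 in Vhl-deleted and at 23234, 28084 and 29576 in wild-type arrays. Its change of 0.07 (95% interval -0.21 to 0.34) turned to -0.033 with quantile normalization and to -0.034 without wild-type replicate 1.

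Genes known as induced through BMP signalling had a median of 0.06 over 5 genes, which was -0.0084 with median scaling and ran from -0.059 without wild-type replicate 3 to 0.12 without Vhl-deleted replicate 3, also turning to -0.0027 without Vhl-deleted replicate 2. Id1, Id2 and Id3 encode inhibitors of DNA binding, and Id2 varied most, with 4718, 4119 and 5987 in Vhl-deleted and 4286, 4344 and 1849 in wild-type arrays. Wild-type replicate 3 was the low array, and the Id2 change of 0.58 was 0.18 without it (limma adjusted p = 0.943 with it and 0.999 without it). Id1 was at -0.22, Id3 at 0.06 and the transcription factor gene Atoh8 at -0.53. Id1 was at -0.068 without Vhl-deleted replicate 3 and Atoh8 at -0.30 without wild-type replicate 3, and Id3 turned to -0.0084 with median scaling and to -0.059 without wild-type replicate 3. The activin, BMP and inhibitor list had a median of 0.16 over 10 tested genes of 22, and 0.01 without Vhl-deleted replicate 3. The activin and inhibin subunit genes of the list, Inha, Inhba and Inhbb, were not among those tested. Fstl1, a secreted follistatin-like protein, was at 3169, 3154 and 3176 in Vhl-deleted and at 2489, 2837 and 2688 in wild-type arrays, without overlap (change 0.25, limma adjusted p = 0.943). Bmp6, a BMP ligand, and Nbl1, a BMP antagonist, were at 0.31 and -0.24. Bmp6 was at 0.043 without Vhl-deleted replicate 3 and at 0.17 without wild-type replicate 1, and Nbl1 at -0.048 without Vhl-deleted replicate 2 and at -0.39 without Vhl-deleted replicate 3.

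Cell type markers were measured on the same arrays. Podocyte markers such as Nphs1 and Podxl were bright on every array of these glomerular samples, and tubule markers such as Umod were bright too. Tubule markers were positive in 16 of 16 tested genes, with a summed signal of 95935 to 154690 in Vhl-deleted and 38490 to 122260 in wild-type arrays, the lowest in wild-type replicate 3, and without that array 5 of 16 were positive. Endothelial markers were positive in 7 of 12 genes (5 with median scaling, 10 with the tubule covariate, and 5 without wild-type replicate 2 to 11 without wild-type replicate 3), mesangial and smooth muscle markers in 7 of 9, and parietal epithelial markers in 8 of 9 (3 without wild-type replicate 3). Immediate early genes, which respond to handling of tissue, had mean log2 levels of 13.04 in Vhl-deleted replicate 3 and 12.95 in wild-type replicate 2, against 11.21 to 11.70 in the other 4 arrays. None of these markers was called, and their part in the differences of the TGF-beta genes was not tested.

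**Figure D5:**
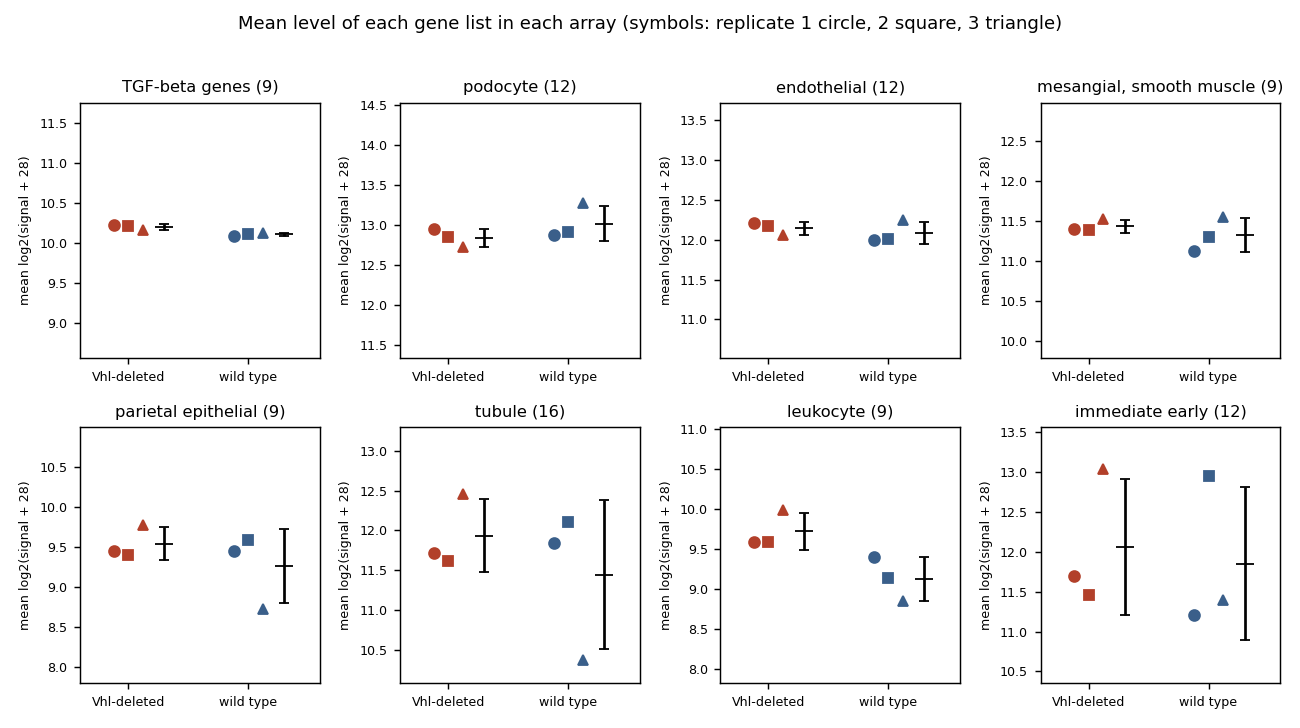
Mean log2(signal + 28) of the 9 TGF-beta genes and of 7 marker lists (vertical axes, each spanning the same range) in the Vhl-deleted (red) and wild-type (blue) arrays, with the mean ± SD as a black bar. The TGF-beta genes vary little, between 10.09 and 10.23, while the tubule list is at 10.38 in wild-type replicate 3 and the immediate early list reaches 13.04 in Vhl-deleted replicate 3.

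The genes whose values followed those of 2 TGF-beta genes most closely over the 6 arrays were found by Pearson correlation of log2 values over the genes tested. For Tgfb2, the gene of widest range, they were Dph3 (r = 0.989), Psen2 (0.982), Tmem11 (0.978), Gnl3 (0.973) and Crocc (0.973). Psen2 was at 966, 559 and 905 in Vhl-deleted and at 783, 806 and 665 in wild-type arrays, low in Vhl-deleted replicate 2 like Tgfb2. For Thbs1, the gene of lowest p, they were Ppcs (0.993), Dhx32 (0.986), Arid5a (0.984), Slc41a3 (0.981) and Kifc3 (0.976). Arid5a was at 340.2, 237 and 383 in Vhl-deleted and at 189.8, 243 and 169.7 in wild-type arrays. With 6 arrays and 11168 genes, correlations of this size are the top of a long list and describe these arrays only.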

How the data were processed

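Each deposited value is an intensity on a linear scale, computed with MAS5 per the submitters' processing notes, which give no version. All 45101 probe sets were read, of which 64 are controls. Symbols came from the array's annotation table and were updated through Entrez numbers in a RefSeq table, which matched 34741 of 34945 probe sets with 1 symbol, while 932 had several symbols and 9160 none. No array was left out, and 0 pairs of arrays were identical. The number of arrays limits precision, and limma's p-values set the difference between groups against the spread between mice within groups.

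Groups were compared on log2(signal + 28), whose pseudocount is the 25th percentile over all arrays, with limma 3.58.1 in R 4.3.3 (lmFit, eBayes with trend, Benjamini-Hochberg adjustment). The pseudocount makes differences of dim genes smaller. The gene fit kept the upper 50% of probe sets by mean signal (about 100.1) and the brightest per gene. A second fit took all non-control probe sets. Only the gene fit was tested on simulated data. The members and gene lists were chosen with earlier results of these data known. The rule names every member, from each list the 3 genes of lowest p and the brightest, and the 5 genes most like 2 members. Other genes were named after their values were seen.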

Additional observations from a re-analysis of the deposited data

How the results depend on the processing

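Over the alternatives run (quantile or median scaling, pseudocounts of 1 and 100, a floor of 16, no filter, the upper 30% of probe sets, the mean of a gene's probe sets, other variance models, array weights, a replicate block, the tubule covariate, a filter on mean log2 value and each array left out), 0 TGF-beta genes and 0 other superfamily genes were called in any. The upper 30% held only 7 of the 9 TGF-beta genes and 57 of the 76 others. Of the 23 probe sets 0 were called in the 16 alternatives that apply to the fit of all probe sets, which leave out those on the filter and on the choice of probe set. The number of genes called among all tested was 15, against 8 in the upper 30%, 35 with array weights, 37 with the tubule covariate, 9 with the filter on mean log2 value (added after the data were seen) and 1 to 14 with 1 array left out. The median change of the 9 genes ran from 0.041 without Vhl-deleted replicate 1 to 0.147 with 1 array left out. Some signs turned. Tgfbr1 was at 0.0042 with quantile normalization and between -0.093 and 0.038 with 1 array left out, Tgfbr2 was at -0.026 with the mean of its probe sets and between -0.013 and 0.15, and Tgfbi was between -0.24 and 0.00073. Tgfb2 probe set 1450922_a_at was at -0.024 with quantile normalization, -0.034 with median scaling and between -0.24 and 0.39 with 1 array left out, and 1438303_at was between -0.077 and 0.78. Smad7 probe set 1443771_x_at was at -0.047 with the tubule covariate and between -0.23 and 0.41. The cause of these turns was not tested.

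With the replicate block, 1 gene was called. Arrays with the same replicate number did not deviate together (correlations of -0.022, -0.41 and -0.51 over genes for replicates 1, 2 and 3) and no array correlated best with its own number, so the numbers are not taken as pairs. Signals near the pseudocount, such as that of Tgfbr2 probe set 1422019_at, carry little information on change.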

Other observations

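One further probe set, 1421811_at, is annotated to both Pald1 and Thbs1 and was therefore not counted as Thbs1. Its signal was 4240.1, 3231 and 4160.5 in Vhl-deleted and 3093, 3628 and 2828 in wild-type arrays. The groups overlapped, and the change was 0.28 (SE 0.15, limma adjusted p = 0.984), in the same direction as both Thbs1 probe sets.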
